A study of Mus musculus with 675 samples.

Results

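Smooth muscle cells switch on their contractile genes through a small set of transcription regulators, and 8 of them are described here in single cells of the mouse aorta: Myocd, Mrtfa, Mrtfb, Srf, Mef2a, Mef2c, Mef2d and Gata6. They were taken by name, as the 8 of 46517 gene identifiers in the count table whose Ensembl numbers carry these symbols in the GRCm38 annotation. The data are 675 single cells. They came from male mice of the C57BL/6 strain at 10 weeks of age, the tissue is labelled aorta, and no genotype or treatment is given. Smart-seq2, which amplifies full-length cDNA of single sorted cells in plates, was used, and the deposited values are counts per gene and cell. The labels put 54.4% of the cells in pool A, which is 2 mice sorted into 1 plate, and 45.6% in pool B, which is 2 other mice and another plate. The protocol, however, describes dissociation of the heart, and the gate used for sorting was not stated in the sources used here. Where a pair of values follows a class or cluster, the value of pool A comes before that of pool B. The pool is the replicate throughout (n = 2), and plate and mice are 1 factor. The p-values cover only how far class differences vary between these pools, with a variance estimate shared in part over all genes.

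SRF is a DNA-binding protein that occupies CArG boxes in the promoters of muscle and growth-response genes. Myocardin (Myocd) is its coactivator in heart and smooth muscle and turns on contractile genes such as Myh11, the smooth muscle myosin heavy chain, and Acta2, smooth muscle actin. The related coactivators MRTF-A (Mrtfa) and MRTF-B (Mrtfb) are widely expressed, are held in the cytoplasm by monomeric actin and move to the nucleus when RhoA signalling drives actin into filaments. MEF2 factors (Mef2a, Mef2c, Mef2d) bind their own AT-rich site under the control of class II histone deacetylases and calcium signalling. GATA6 is a zinc-finger factor of vascular smooth muscle and of the heart.

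Cells were divided into classes by clustering on genes that exclude the 8 regulators and by marker genes, among them Myh11 and Acta2. There were 576 smooth muscle-like cells (83.9% of the cells of pool A and 87.01% of those of pool B), 73 fibroblast-like cells (43 and 30) and 26 endothelial-like cells (16 and 10). A cell held 51886 to 713700 counts with a median of 285132. All 8 smooth muscle markers were above 100 CPM (counts of the gene per 1e6 counts of the summed cells) in smooth muscle-like cells from each pool. The summed level of these 8 markers came to 21169 and 19153 CPM in the smooth muscle-like, 4024 and 4897 CPM in the fibroblast-like and 2230 and 3236 CPM in the endothelial-like class. The other classes thus also held contractile RNA, and its part in the levels below was not tested. Cspg4, which is on the list of pericyte markers, was among the 10 leading genes of each of the 3 smooth muscle-like clusters, and no smooth muscle marker was among those of clusters 1 and 2. For that reason the comparisons were also made with each cluster alone.

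The promoters show where binding sites for these factors lie near the members themselves. In the RefSeq promoter windows of GRCm38.p6 (300 bases each, 250 before to 50 after the start of transcription), 6 of the 8 members have a window and Myocd and Gata6 are not listed there, nor is Myh11. Exact CArG boxes were searched on both strands in 32851 windows and occur in 1.63% of them, and exact MEF2 sites occur in 3.19%. Srf, the factor that binds CArG boxes, has a pair of them in its own promoter, at -82 and -62 from the start site. Mef2a has a MEF2 site over its own start site, at -2, and 1 of the 3 Mrtfb windows has one at -165. The windows of Mrtfa, Mef2c, Mef2d and Acta2 hold no exact match of either kind, which says only that these letters are not in those windows. The members with a match are printed 5′ to 3′ on the strand of the gene, with the motif in capitals. Srf lies at chr17:46556113-46556412 (minus strand), Mef2a at chr7:67372809-67373108 (minus strand) and this Mrtfb start at chr16:13358171-13358470 (plus strand).
Srf promoter: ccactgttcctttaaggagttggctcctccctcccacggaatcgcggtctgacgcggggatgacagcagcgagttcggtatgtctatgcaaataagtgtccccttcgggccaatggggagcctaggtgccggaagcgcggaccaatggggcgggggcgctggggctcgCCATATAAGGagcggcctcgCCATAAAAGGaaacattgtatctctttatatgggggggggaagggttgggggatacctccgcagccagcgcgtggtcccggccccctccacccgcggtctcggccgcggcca
Mef2a promoter: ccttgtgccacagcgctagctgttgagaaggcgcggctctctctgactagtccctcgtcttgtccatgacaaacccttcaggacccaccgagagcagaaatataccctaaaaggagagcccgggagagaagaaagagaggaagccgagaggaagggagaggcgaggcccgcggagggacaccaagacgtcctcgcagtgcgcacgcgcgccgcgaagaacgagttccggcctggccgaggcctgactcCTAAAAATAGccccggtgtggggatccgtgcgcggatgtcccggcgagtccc
Mrtfb promoter: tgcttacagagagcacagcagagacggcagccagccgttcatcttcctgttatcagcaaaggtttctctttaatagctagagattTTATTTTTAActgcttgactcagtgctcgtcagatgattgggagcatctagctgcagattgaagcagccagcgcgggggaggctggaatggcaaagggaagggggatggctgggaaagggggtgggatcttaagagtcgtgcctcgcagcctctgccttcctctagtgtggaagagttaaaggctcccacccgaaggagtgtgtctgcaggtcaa

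Of 25 contractile genes on a list of SRF targets, 21 have windows, and 6 of these 21 genes (28.6%) hold an exact CArG box, against 1.81% of all 27025 genes with a window. The 6 are Cnn2, Fhl1, Fhl2, Ldb3, Myl9 and Vcl. The list was drawn up as targets of SRF, which binds these boxes, so it is not independent of the motif and these shares are no test. Myl9, the regulatory myosin light chain, and Ldb3, a protein of actin anchorage, are shown because both are named in the results below. Ldb3 had the largest rise among the called contractile genes against fibroblast-like cells. Myl9 ranked highest of the list in correlation with Myocd, a relation that is not read as a finding. The Myl9 window lies at chr2:156775214-156775513 (plus strand) with its box at -161, and the Ldb3 window at chr14:34588632-34588931 (minus strand) with its box at -35.
Myl9 promoter: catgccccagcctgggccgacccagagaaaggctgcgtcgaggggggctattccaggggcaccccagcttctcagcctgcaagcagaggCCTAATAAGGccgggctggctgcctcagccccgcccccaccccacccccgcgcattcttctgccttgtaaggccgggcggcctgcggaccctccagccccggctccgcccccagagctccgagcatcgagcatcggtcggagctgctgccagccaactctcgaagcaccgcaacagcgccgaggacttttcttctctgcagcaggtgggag
Ldb3 promoter: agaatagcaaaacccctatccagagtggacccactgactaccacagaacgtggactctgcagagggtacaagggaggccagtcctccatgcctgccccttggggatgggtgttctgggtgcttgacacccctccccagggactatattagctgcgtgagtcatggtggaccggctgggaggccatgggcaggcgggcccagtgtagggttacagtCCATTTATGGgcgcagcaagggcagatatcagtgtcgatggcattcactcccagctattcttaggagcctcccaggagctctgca

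In smooth muscle-like cells Myocd measured 435 CPM in pool A and 824 CPM in pool B. Mef2a measured 249.6 and 138.2 CPM, Mef2c 243.2 and 158.9 CPM, Gata6 140.6 and 61.9 CPM, Mef2d 126.7 and 97.4 CPM, and Srf 69.2 and 53.9 CPM in pools A and B. In the same cells Mrtfa, at 15.2 and 35.4 CPM, and Mrtfb, at 17.6 and 31.7 CPM, had the fewest counts. Myh11 measured 4252 and 3365 CPM and Acta2 6649 and 5761 CPM. The interval from counting alone was narrow, for example 430.7 to 439 CPM for Myocd in pool A (exact Poisson, 95%), and the pools differed by far more than that.

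Levels between genes can be compared only per length. Per kilobase of exon, Myocd averaged 98.02 ± 42.9 CPM, Srf 21.3 ± 3.73, Mef2d 18.7 ± 3.45, Gata6 15.6 ± 8.55, Mef2a 13.2 ± 5.37, Mef2c 12.8 ± 3.79, Mrtfa 4.13 ± 2.34 and Mrtfb 2.74 ± 1.11 CPM per kilobase in smooth muscle-like cells (SD, n = 2 pools). Myocd was above every other member in both pools. Srf, Mef2d, Gata6, Mef2a and Mef2c lay within about 1 SD of their neighbours in this order, as did Mrtfa and Mrtfb. On the same scale, Myh11 averaged 501 ± 82.5 and Acta2 2826 ± 285.8 CPM per kilobase.

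Nearly every smooth muscle-like cell held Myocd RNA. A Myocd count was found in 98.7% of smooth muscle-like cells of pool A and in 100% of those of pool B. Mef2a was found in 94.5% and 94.4%, Mef2c in 91.9% and 95.1%, Mef2d in 73.7% and 80.97%, Gata6 in 76.6% and 66.04% and Srf in 60.4% and 60.1% of the cells of pools A and B. Mrtfa was found in 17.5% and 44.03% and Mrtfb in 31.5% and 44.03%. With each cell thinned to 20000 counts, Myocd was found in 87.7% and 97.01% and Srf in 36.7% and 33.6%. Endothelial-like cells, which are not known to express it, held a Myocd count in 62.5% and 90% of cells, or 12.5% and 50% after thinning, at a median depth of 231789.5 and 175719.5 counts against 292447.5 and 324558 counts in smooth muscle-like cells. A Myocd count alone thus does not mark a cell as smooth muscle-like, and levels are used below. The median smooth muscle-like cell held counts of 6 of the 8 members, and 10 cells of pool A and 23 cells of pool B held all 8.

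Myh11 and Acta2 had a count in every cell of all 3 classes, so their presence cannot be set against that of a member. The distribution of Myocd had a low tail. Below 100 CPM of Myocd lay 51 smooth muscle-like cells of pool A (16.6%) and 17 of pool B (6.34%), a threshold chosen after the values were seen. These low cells had a median of 15.8 and 40.5 CPM of Myocd, against 432 and 774 CPM in the other smooth muscle-like cells. Their median Myh11 was 4336 and 3291 CPM, against 4368 and 3458 CPM in the other cells. Their median Acta2 was 6863 and 7226 CPM, against 6960.3 and 5937 CPM in the other cells. The medians of Myh11 were thus close, and Acta2 was slightly lower in the low cells of pool A and higher in those of pool B. The lowest cells differed more, since in pool A the low cells reached down to 53.6 CPM of Myh11 and 781 CPM of Acta2, against 1155 and 2287 CPM in the other cells. In pool B the low cells reached down to 385.5 CPM of Myh11 and 4883 CPM of Acta2, against 87.9 and 2282 CPM in the other cells. Their median total was 270760 and 206033 counts, against 296207 and 328471 counts in the other cells, and the part of depth in the tail was not tested.

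**Figure D1:**
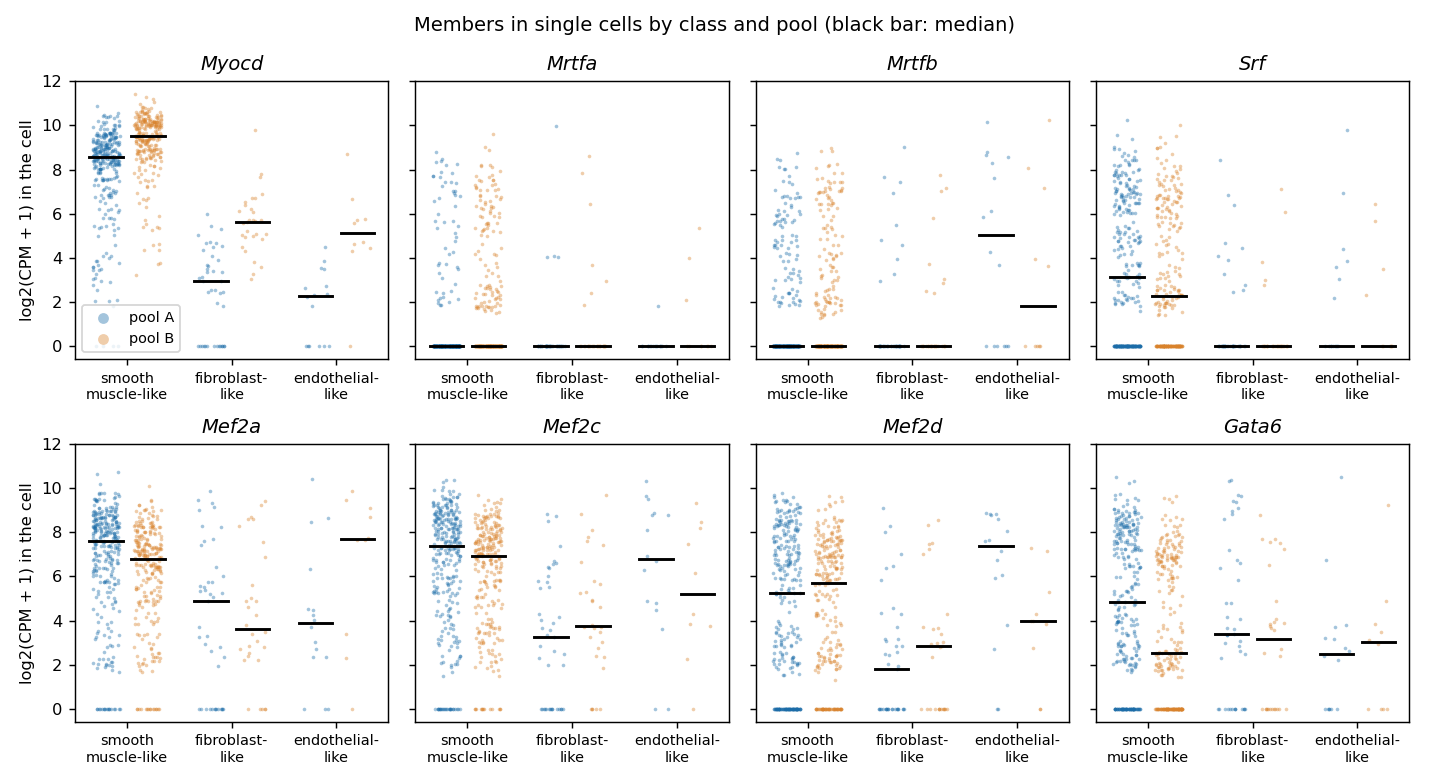
Level of each member in single cells, as log2(CPM + 1), by cell class and pool (pool A blue, pool B orange; 1 point is 1 cell; the black bar is the median). Myocd is high in nearly all smooth muscle-like cells with a low tail in both pools, and Mrtfa and Mrtfb are at 0 in most of them.

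The first question was which regulators separate contractile cells from their matrix-producing neighbours, the fibroblast-like cells. Only Myocd of the 8 members passed the test. It measured 435 and 824 CPM in smooth muscle-like cells, against 8.94 and 108.5 CPM in fibroblast-like cells. Both smooth muscle-like values lie above both fibroblast-like values. Its log2 fold change was 4.14 ± 0.67 (SE; edgeR quasi-likelihood test with the pool as a block, adjusted p = 0.0207). The test called 408 of 8625 genes (4.73%), with 1.98% up and 2.75% down in the smooth muscle-like class, and the median log2 fold change of all genes was 0.25. Each smooth muscle-like cluster alone also gave the call, with log2 fold changes of 4.02, 4.28 and 3.82 for clusters 0, 1 and 2. The call was lost when all 3 classes shared 1 fit (adjusted p = 0.127) and without the block (adjusted p = 0.184), and it held in the other 11 of 13 alternatives, with adjusted p from 1.39e-15 to 0.0249.

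Myocd counts were found in 67.4% and 100% of fibroblast-like cells, at a median of 6.79 and 48.8 CPM. In pool B, 6 of 30 such cells held at least 100 CPM and 1 cell held 47.8% of the Myocd counts. The same cell held 44.2% of the Myh11 counts of the class. In pool A too, 1 fibroblast-like cell was highest in both genes, with 23.2% of the Myocd counts and 32.05% of the Myh11 counts. With 5 fibroblast-like cells left out that took another name at a finer clustering, Myocd measured 7.63 and 44.97 CPM in fibroblast-like cells and its log2 fold change was 4.89 (edgeR adjusted p = 0.00104). Per 100 Myh11 counts there were 10.2 and 24.5 Myocd counts in smooth muscle-like cells, 1.96 and 24.2 in fibroblast-like cells and 1.27 and 47.4 in endothelial-like cells. The ratio was thus lower outside smooth muscle-like cells in pool A but not in pool B. No doublet caller was run, and the part of mixed cells or free RNA was not tested.

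Srf and the 3 MEF2 genes had higher levels in the smooth muscle-like sums of both pools but did not pass the test. The share of all genes that were higher in both pools, or whose groups did not overlap, is not given for any comparison here. Neither trait is therefore read as a result about the members, and the median log2 fold change of all genes was itself 0.25. Srf measured 69.2 and 53.9 CPM in smooth muscle-like cells, against 14.9 and 13.1 CPM in fibroblast-like cells. The groups did not overlap, and the log2 fold change was 2.06 ± 0.55 (edgeR adjusted p = 0.114; DESeq2 adjusted p = 0.00505). Mef2c measured 243.2 and 158.9 CPM in smooth muscle-like cells, against 56.1 and 79.8 CPM in fibroblast-like cells. Its groups did not overlap either, and the log2 fold change was 1.48 ± 0.37 (edgeR adjusted p = 0.0957; DESeq2 adjusted p = 0.00607). Mef2d measured 126.7 and 97.4 CPM in smooth muscle-like cells, against 44.8 and 53.4 CPM in fibroblast-like cells, a log2 fold change of 1.11 ± 0.37 (edgeR adjusted p = 0.2). Mef2a measured 249.6 and 138.2 CPM in smooth muscle-like cells, against 107.8 and 87.3 CPM in fibroblast-like cells, a log2 fold change of 0.87 ± 0.29 (edgeR adjusted p = 0.2). Without the 5 fibroblast-like cells left out above, the log2 fold change of Srf was 3.21 (edgeR adjusted p = 0.0523). In fibroblast-like cells of pool A, 1 cell held 74.8% of the Srf counts, and only 11 of 43 and 5 of 30 fibroblast-like cells held any in pools A and B. The unadjusted p was under 0.05 for 5 of the 8 members. The share of all genes at that level is not given here, so the count is not read as a result about the members.

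Mrtfa, Mrtfb and Gata6 were not called and showed no common direction. Mrtfa measured 15.2 and 35.4 CPM in smooth muscle-like cells, against 19.8 and 30.7 CPM in fibroblast-like cells (log2 fold change -0.16 ± 0.69, edgeR adjusted p = 0.938). Mrtfb measured 17.6 and 31.7 CPM in smooth muscle-like cells, against 36.3 and 19.3 CPM in fibroblast-like cells (-0.24 ± 0.78, edgeR adjusted p = 0.914). Gata6 measured 140.6 and 61.9 CPM in smooth muscle-like cells, against 196.2 and 50.2 CPM in fibroblast-like cells (-0.16 ± 0.33, edgeR adjusted p = 0.86). For all 3 the groups overlap, and the difference has opposite signs in the pools. The standard errors leave room for differences of more than 1 log2 unit in Mrtfa and Mrtfb, so equal levels are not shown.

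**Figure D2:**
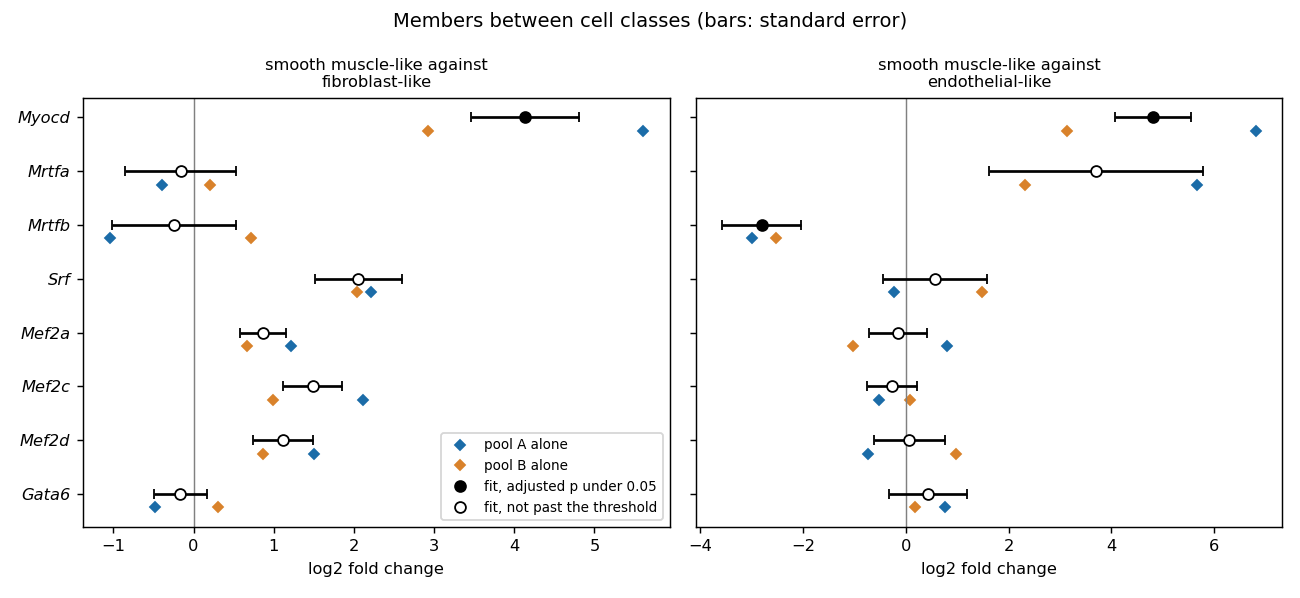
Log2 fold change of each member in smooth muscle-like cells against fibroblast-like (left) and endothelial-like cells (right). Black points are the edgeR fit with its standard error, filled where the adjusted p is under 0.05, and diamonds are the fold in pool A (blue) and pool B (orange) alone; Myocd is filled and above 0 in both panels and Mrtfb is filled and below 0 at right.

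Against endothelial-like cells, Myocd was again higher in smooth muscle-like cells and Mrtfb was lower. Myocd measured 435 and 824 CPM in smooth muscle-like cells, against 3.88 and 93.9 CPM in endothelial-like cells. The groups do not overlap, and the log2 fold change was 4.81 ± 0.73 (edgeR adjusted p = 0.00024). In pool B, 1 of the 10 endothelial-like cells held 66.7% of their Myocd counts. Of 8422 genes tested, 475 were called (5.64%), with 2.54% up and 3.1% down in the smooth muscle-like class, with a median log2 fold change of 0.67 over all genes. The Myocd call was lost in the fit of all 3 classes (adjusted p = 0.0523), without the block (adjusted p = 0.189), and with cluster 1 or cluster 2 alone (adjusted p = 0.051 and 0.108).

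Mrtfb was the only member called lower in smooth muscle-like cells. It measured 17.6 and 31.7 CPM in smooth muscle-like cells, against 140.2 and 182.8 CPM in endothelial-like cells. Both pools agree in direction without overlap, and the log2 fold change was -2.81 ± 0.76 (edgeR adjusted p = 0.0349). The endothelial-like counts rest on few cells, since 10 of 16 cells of pool A and 5 of 10 of pool B held any, and 1 cell of pool B held 66.3% of them. The call was lost in 6 of 12 alternatives, with adjusted p up to 0.144, and the log2 fold change stayed between -3.36 and -2.56. Mrtfa went the other way without passing the test. It had 1 count over 16 endothelial-like cells in pool A and 14 counts over 10 cells in pool B, or 0.298 and 7.07 CPM, against 15.2 and 35.4 CPM in smooth muscle-like cells (log2 fold change 3.70 ± 2.08, edgeR adjusted p = 0.368).

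The other 5 members were not called against endothelial-like cells. Mef2c measured 243.2 and 158.9 CPM in smooth muscle-like cells, against 349.8 and 150.5 CPM in endothelial-like cells (log2 fold change -0.27 ± 0.48, edgeR adjusted p = 0.847). The log2 fold changes were 0.57 ± 1.01 for Srf, -0.15 ± 0.56 for Mef2a, 0.07 ± 0.69 for Mef2d and 0.43 ± 0.76 for Gata6, with edgeR adjusted p from 0.841 to 0.978. The sign of the small Mef2d value turned in 8 alternatives, and that of Mef2a in 1.

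The endothelial-like class joined a larger and a smaller cluster that differ in Gata6 and Mef2c. Gata6 measured 969 and 131.4 CPM in the 2 and 3 cells of cluster 5, against 4.54 and 4.18 CPM in the 14 and 7 cells of cluster 4. Mef2c measured 14.7 and 5.10 CPM in cluster 5, against 379 and 245.8 CPM in cluster 4. The sums of each gene separate these clusters in both pools, though cluster 5 has only 5 cells and no test was made. For Gata6 the sums rest mostly on 1 endothelial-like cell in each pool, with 91.4% and 88.9% of the counts of the class. The median cell held 765.9 and 28.3 CPM of Gata6 in cluster 5, against 3.92 and 0 CPM in cluster 4. At the coarser clustering, which joins these 5 cells to smooth muscle-like cells, and with another clustering seed, Gata6 was called higher in smooth muscle-like cells (log2 fold change 4.41, edgeR adjusted p = 0.0163).

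Between fibroblast-like and endothelial-like cells, edgeR called 0 of the 8 members, against 3.4% of 6054 genes, with 1.88% higher and 1.52% lower in the fibroblast-like class. At an unadjusted p under 0.05 there were 2 members, Mrtfb (log2 fold change -2.53 ± 0.84, edgeR adjusted p = 0.209) and Mef2c (-1.72 ± 0.70, edgeR adjusted p = 0.281). The share of all genes at that unadjusted level is not given here, so their number is not read as a result. DESeq2 called 1 of the 8, Mrtfb, with an adjusted p = 0.0231. Mrtfb measured 36.3 and 19.3 CPM in fibroblast-like cells, against 140.2 and 182.8 CPM in endothelial-like cells. Both fibroblast-like values lie below both endothelial-like values, as in the comparison with smooth muscle-like cells, which shares those endothelial-like cells.

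Genes around the members were taken from 6 lists, and smooth muscle-like cells were again set against fibroblast-like cells. The contractile list, targets of SRF and myocardin, had 18 of 25 genes higher and 0 lower, with a median log2 fold change of 1.76 against 0.25 over all genes. The classes were named from contractile markers, so this list is not independent of them. Among its called genes the largest rise was that of Ldb3, with 262.2 and 337.7 CPM in smooth muscle-like cells against 16.5 and 22.95 CPM in fibroblast-like cells (log2 fold change 3.86 ± 0.29). Next among them came Kcnmb1, which encodes an accessory subunit of a potassium channel opened by calcium, at 513 and 536 CPM against 48.6 and 24.9 CPM (3.83 ± 0.32).

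The share called among the other targets of SRF and the signalling genes was near that of all genes tested (4.73%). Of 14 immediate early and cytoskeletal targets, 1 was higher and 0 lower (median 0.16), the 1 being Tgfb1i1, which encodes the focal adhesion protein Hic-5 (log2 fold change 1.47 ± 0.18). Of 18 genes of actin turnover and RhoA signalling, which govern the MRTF proteins, 17 were tested and 1 was higher (median 0.68), the muscle cofilin Cfl2 (1.52 ± 0.24). Of 16 genes that regulate MEF2, 15 were tested and 1 was higher (median 0.89), Camk2g, a calcium/calmodulin-dependent kinase (2.15 ± 0.30). Of 7 GATA factors and their partners, 5 were tested and 0 were called by edgeR or by DESeq2, with 0 at an unadjusted p under 0.05. The highest of them in smooth muscle-like cells were Zfpm2, a GATA cofactor, at 8.13 and 9.16 CPM, and Gata4 at 0 and 9.11 CPM.

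Factors that bind SRF or compete with myocardin moved in both directions. Of 25 on the list, 22 were tested, 1 was higher and 3 were lower (median -0.36), against 1.98% higher and 2.75% lower among all genes. Csrp2, a LIM protein of smooth muscle that bridges SRF and GATA factors, was higher (log2 fold change 1.79 ± 0.17). The 6 named genes that rose had edgeR adjusted p from 0.00142 for Ldb3 to 0.0199 for Cfl2. Klf4, which represses myocardin-driven genes, measured 26.6 and 6.37 CPM in smooth muscle-like cells, against 309.5 and 58.8 CPM in fibroblast-like cells (-3.44 ± 0.35, edgeR adjusted p = 0.00333). Tcf21, a factor of the epicardial and fibroblast lineage, measured 0 and 3.52 CPM in smooth muscle-like cells, against 4.92 and 173.3 CPM in fibroblast-like cells (-6.71 ± 1.04, edgeR adjusted p = 0.0171). Prrx1, a mesenchymal homeodomain factor named here after its values were seen, was lower as well (-2.23 ± 0.29, edgeR adjusted p = 0.0076). Fibroblast markers move with these genes, since the fibroblast-like class was named from them, and their part was not tested.

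Against endothelial-like cells, 18 of 25 contractile genes were higher and 0 lower (median 2.83, against 0.67 over all genes), where 2.54% of all genes were higher and 3.1% lower. The genes called in the other lists are all named here after their values were seen. Of the immediate early and cytoskeletal targets, Tgfb1i1 was higher in smooth muscle-like cells, and Egr1, Junb and Ier2 were lower. Cfl2 was higher and Ssh2, a cofilin phosphatase, was lower. Among SRF partners, Csrp2, Tead3 and Prrx1 were higher and Elk3, Klf2 and Klf4 were lower. Gata2, an endothelial and blood GATA factor, was lower (1.87 and 0.447 CPM in smooth muscle-like cells, against 148.5 and 95.5 CPM in endothelial-like cells). Of 15 MEF2 regulators tested, edgeR called 0, against 5.64% of all genes, and DESeq2 called 2. For 5 of them the unadjusted p was under 0.05, a level at which the share of all genes is not given here.

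Within smooth muscle-like cells the pools differed in most members. A 1.5-fold difference, a size chosen after the data were seen, separated the pools in 22.1% of 9542 genes with a mean of at least 10 CPM, 14.1% being higher in pool A and 8.01% higher in pool B. Of the 8 members, 6 passed it. Gata6 (2.27-fold), Mef2a (1.81-fold) and Mef2c (1.53-fold) were higher in pool A, and Mrtfa, Myocd and Mrtfb were higher in pool B, with ratios of pool A over pool B of 0.428, 0.528 and 0.553. Srf (1.28-fold), Mef2d (1.30-fold), Myh11 (1.26-fold) and Acta2 (1.15-fold) stayed within it. Each pool is 1 sum, so no test was made. The pools fill the clusters unequally, since clusters 0, 1 and 2 hold 63.96%, 15.3% and 20.8% of the smooth muscle-like cells of pool A and 17.9%, 69.4% and 12.7% of those of pool B.

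The pool difference of Myocd was seen within every cluster. In cluster 0 it measured 435 CPM in pool A and 754 CPM in pool B, in cluster 1 536 and 856 CPM, and in cluster 2 355.2 and 677 CPM. Pool B was higher in all 3, and by these sums cluster 1 was highest and cluster 2 lowest in both pools. By the median cell, pool A had 385.6, 369.3 and 357.7 CPM in clusters 0, 1 and 2, with cluster 0 highest, and pool B had 635.8, 810.1 and 545.5 CPM, with cluster 1 highest. Cluster 1 was led by Tnnt2, the cardiac troponin T gene, and Igfbp2, and cluster 2 by Rgs5. Mef2a measured 250.9 and 153.4 CPM in cluster 0, 189.6 and 134.3 CPM in cluster 1 and 292.7 and 145.5 CPM in cluster 2, higher in pool A in each. Gata6 measured 135.6 and 94.2 CPM, 129.4 and 56.7 CPM, and 164.3 and 54.3 CPM in clusters 0, 1 and 2, likewise higher in pool A in each. Srf had no such order. It measured 60.3 and 91.95 CPM in cluster 0, 71.02 and 43.8 CPM in cluster 1, and 93.9 and 76.2 CPM in cluster 2, so that pool B was higher in cluster 0 and pool A in the other 2.

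**Figure D3:**
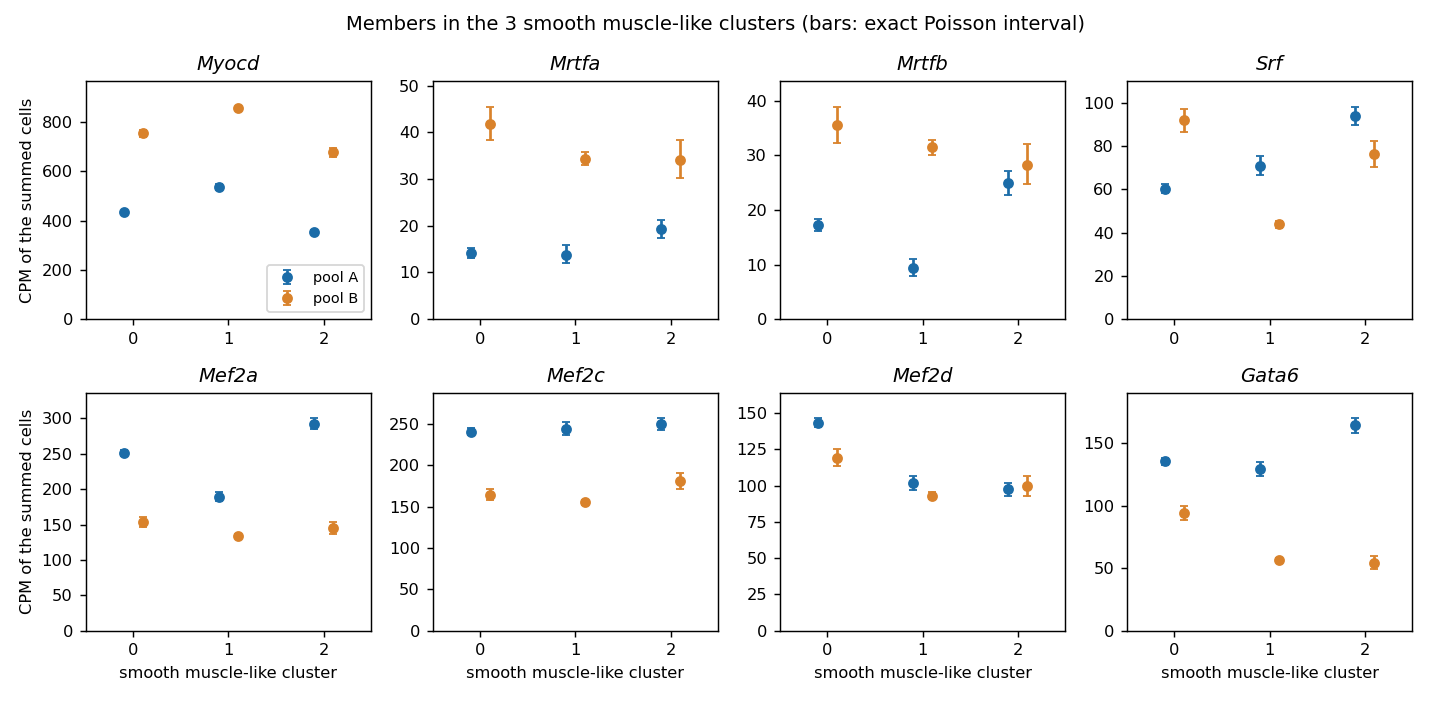
Level of each member in the 3 smooth muscle-like clusters, as CPM of the summed cells, in pool A (blue) and pool B (orange); bars are exact Poisson 95% intervals, which cover counting error only. Myocd is higher in pool B in all 3 clusters, and Mef2a, Mef2c and Gata6 are higher in pool A in all 3.

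The last comparison asked whether the regulators vary with Myh11 and Acta2 from cell to cell. The measure was Spearman's correlation of CPM over the smooth muscle-like cells of a pool, with the ranks of the total count and of the number of genes detected held constant. The cells of a pool share mice, plate and library preparation, and the values are descriptions. Over all classes together, Myocd went with both genes, at 0.353 and 0.358 with Myh11 and 0.527 and 0.445 with Acta2 in pools A and B, an alternative added after the data were seen. Within smooth muscle-like cells the values were 0.0106 and 0.147 with Myh11 and 0.230 and 0.192 with Acta2 (576 cells in all). Against 3993 other genes with a count in at least 50% of the cells of each pool, the Acta2 value was above 99.9% and 99.5% of them, and the Myh11 value above 45.7% and 97.5%.

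The relation of Myocd to Acta2 depended on the measure and on the pool. With plain Spearman correlation it was 0.0377 and -0.0696, and with cells thinned to 20000 counts 0.0725 and -0.0288, in pools A and B. The count of Acta2 rose less than in proportion to the total count of a cell, since its log count had a slope of 0.424 and 0.448 on the log total, against a median slope of 1.08 and 1.11 over all genes and of 1.16 and 1.16 for Myocd. The value stayed above 0 in pool A and turned below 0 in pool B, so the relation is not read as a finding. As a scale, Myh11 and Acta2 correlated with each other at 0.430 and 0.132.

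**Figure D4:**
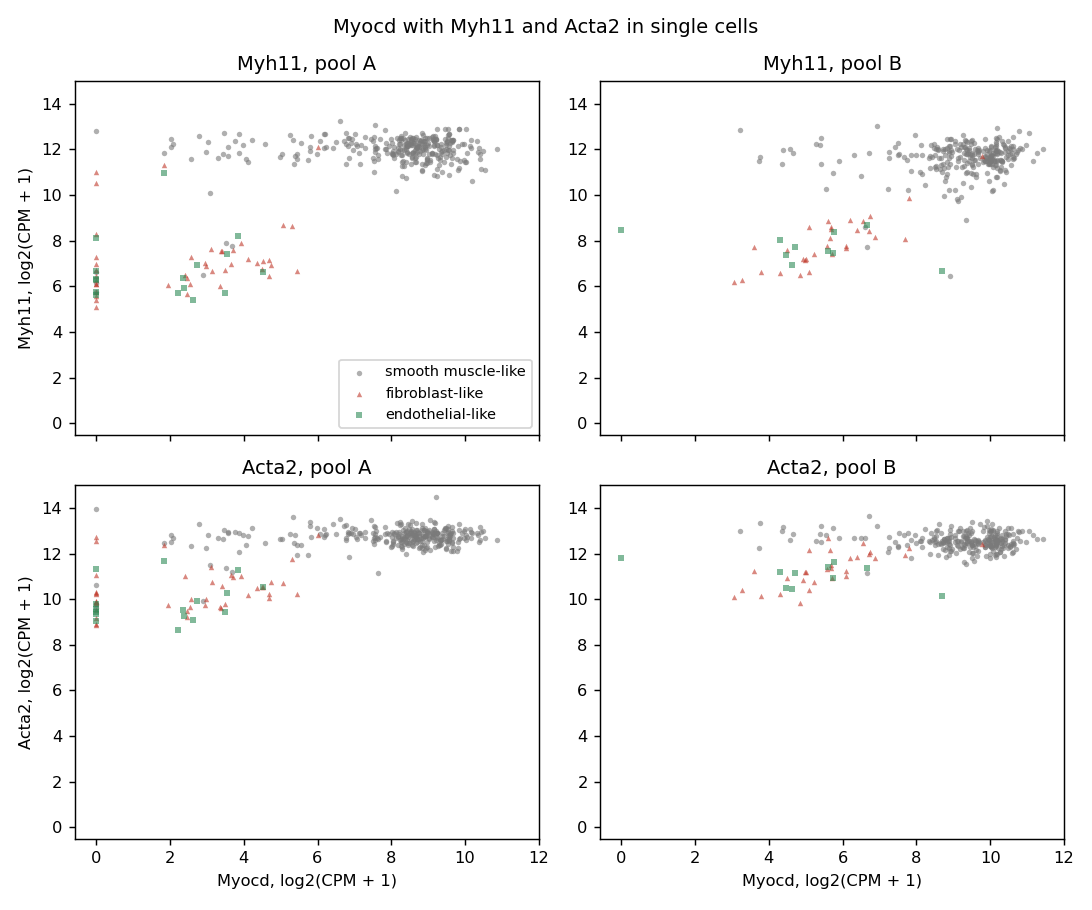
Myocd (x axis) against Myh11 (top) and Acta2 (bottom) in single cells, all as log2(CPM + 1), for pool A (left) and pool B (right); 1 point is 1 cell, coloured by class. Most smooth muscle-like cells are high in Myh11 and Acta2, including most of those low in Myocd, and a few cells of pool A are low in all 3 genes.

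For the other 7 members, the 28 values with Myh11 or Acta2 lay between -0.112 and 0.149. Gata6 had 0.0739 and 0.149 with Myh11, but 0.0819 and -0.112 with Acta2. Srf had 0.0169 and 0.0888 with Myh11, and 0.0617 and -0.0915 with Acta2. Mef2a had -0.110 and 0.0721 with Myh11. Between members, the pair with the highest lower value was Srf and Gata6, at 0.149 and 0.129, whereas Myocd and Srf had -0.0643 and 0.0336.

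**Figure D5:**
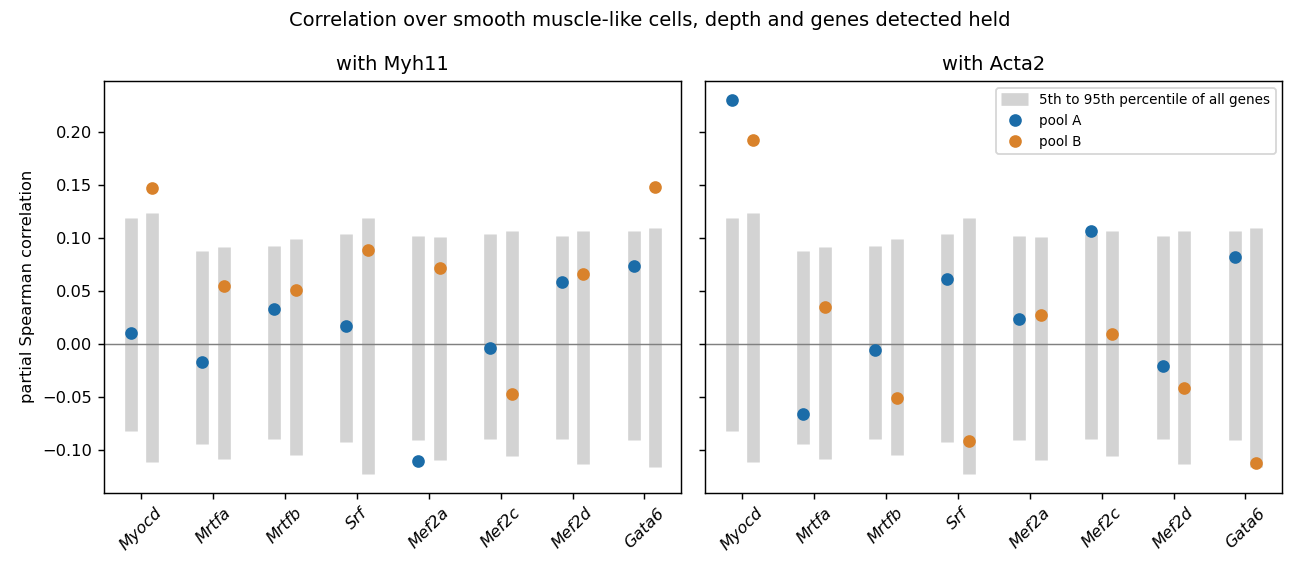
Partial Spearman correlation of each member with Myh11 (left) and Acta2 (right) over smooth muscle-like cells of pool A (blue) and pool B (orange); grey bars span the 5th to 95th percentile of the correlations of that member with all 3994 genes detected in most cells. Myocd lies above its bar for Acta2 in both pools (0.230 and 0.192), a relation that depended on the measure and is not read as a finding. Most other points lie inside their bars.

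Across the contractile list, 23 genes were detected widely enough to be correlated. The median correlation of Myocd with them was 0.057 and 0.0605, against 0.0173 and 0.0052 with all genes. With plain Spearman correlation the medians were 0.0389 and 0.0234, against 0.0243 and 0.0259 with all genes. After thinning they were 0.0379 and 0.0313, against 0.0212 and 0.0226. By Pearson correlation of log2(CPM + 1), with depth not held, they were 0.272 and 0.0799, against 0.0665 and 0.0590. The excess over all genes thus varied with the measure and the pool, and the relation of Myocd to the list is not read as a finding. Ranked by the lower of both pool values, the highest were Myl9 (0.147 and 0.150), Tpm1 (0.107 and 0.107) and Tpm2 (0.0869 and 0.119), a light chain and a pair of tropomyosins, and the lowest were Nexn (0.0835 and -0.150), Cald1 (0.0291 and -0.0843) and Kcnmb1 (0.182 and -0.0638). The values of Srf with the list had a median of 0.0363 and 0.0482 and those of Gata6 0.0679 and 0.0198. The median of Mrtfb was negative in both pools, at -0.0271 and -0.0484. Myh11 and Acta2 themselves had medians of 0.246 and 0.162, and of 0.243 and 0.148, with the same genes.

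The 3 genes most like each member were ranked by the lower of the 2 pool values of the same correlation. For Myocd they were Acta2, E030013I19Rik (0.193 and 0.189) and Pdlim5, a protein of actin anchorage (0.244 and 0.188). The place of Acta2 holds for this measure only, since its relation to Myocd depended on the measure as described above. For Srf they were Lars2, a mitochondrial tRNA synthetase (0.194 and 0.178), Actn1, the actin cross-linker (0.175 and 0.179), and Prrc2c (0.157 and 0.146). For Mef2a they were Angpt2 (0.146 and 0.175), Ldhb and Cers4, for Mef2c Fbxl2 (0.148 and 0.174), Smim10l1 and Unc5c, and for Mef2d Adamts2 (0.192 and 0.197), AA474408 and 1810026B05Rik. For Gata6 they were Pcdh7 (0.155 and 0.185), Slc4a3 and Amotl1. All are the tops of 3993 values each, and Mrtfa and Mrtfb were detected in too few cells for this ranking.

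The members are spread over the genome of GRCm38. Myocd (ENSMUSG00000020542) lies on chromosome 11 at 65176561 to 65269989, Mrtfa (ENSMUSG00000042292) on chromosome 15 at 81012281 to 81190757, and Mrtfb (ENSMUSG00000009569) on chromosome 16 at 13256481 to 13417529. Srf (ENSMUSG00000015605) lies on chromosome 17 at 46548329 to 46556175, Mef2a (ENSMUSG00000030557) on chromosome 7 at 67231163 to 67372858, Mef2c (ENSMUSG00000005583) on chromosome 13 at 83504034 to 83667080, and Mef2d (ENSMUSG00000001419) on chromosome 3 at 88142372 to 88172086. Gata6 (ENSMUSG00000005836) lies on chromosome 18 at 11052064 to 11085635. Of these, 5 share exonic bases with a gene on the opposite strand: Mrtfa 10 bases with Sgsm3, Gata6 93 with 1010001N08Rik, Mef2d 531 with 1700113A16Rik, and Mrtfb (with Gm15738) and Mef2a (with Lysmd4) between 93 and 531 each. Whether the counting used strand was not stated in the sources used here, so reads from these stretches cannot be told apart. Myocd, Srf and Mef2c share none.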

How the data were processed

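The values were read counts per gene and cell of Smart-seq2 libraries, deposited by the authors as raw counts. Per the submitters' processing notes, the tools included bcl2fastq, Bowtie2 and featureCounts on GRCm38/mm10; settings, strand and duplicate removal: not given in the sources used here, and there are no molecular identifiers. Intervals on counts therefore cover counting error only.

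Symbols came from the GRCm38 annotation. The 512 identifiers without one, holding 0.217% of counts, kept their Ensembl number as a name and were used like the other genes. Requiring 1000 genes and 20000 counts in a cell removed 0 cells. Cells were clustered with scanpy 1.11.5 and Leiden (leidenalg 0.10.2) on 2000 variable genes out of 23196, 20 components, 15 neighbours and resolution 0.5. Members and their lists were kept out of clustering, and classes were named from markers by a rule set after the clusters were seen. No doublet caller was run. Counts were summed per pool and class and tested with edgeR 4.0.16 (quasi-likelihood, TMM, low counts filtered by filterByExpr, pool as block, Benjamini-Hochberg adjustment, threshold 0.05), with R 4.3.3. The block follows the labels, since sums of 1 pool share mice and plate. Differences between the pools correlated across 4933 genes at 0.304 (smooth muscle-like and fibroblast-like), 0.198 (smooth muscle-like and endothelial-like) and 0.0892 (fibroblast-like and endothelial-like). DESeq2 1.42.0, other filters, scalings, clusterings, thinning and subsets of cells were alternatives. The edgeR test in its main setting, the correlation, the thinning and the slope on depth were tried on simulated data, and DESeq2 was not.

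The members and 6 gene lists were chosen with earlier results of these data known. The text names, per list, up to 2 genes with the largest rise and 2 with the largest fall among called genes of at least 10 CPM against fibroblast-like cells, or else the 2 highest in smooth muscle-like cells. It also names the 3 genes most correlated with each member, and the 3 highest and 3 lowest contractile genes for Myocd. Depth per cell was 52000 to 608582 counts in pool A and 51886 to 713700 in pool B.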

Additional observations from a re-analysis of the deposited data

Results flagged for a closer look

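For 9 of the 24 pairs of a member and a comparison, the log2 difference between classes had opposite signs in the pools. Each pool is 1 sum per class, so these differences were not tested. Against fibroblast-like cells, the log2 difference in smooth muscle-like cells came to -0.39 (pool A) and 0.21 (pool B) for Mrtfa (pool A minus pool B -0.59), -1.05 and 0.72 for Mrtfb (-1.76), and -0.48 and 0.30 for Gata6 (-0.78). Against endothelial-like cells it was -0.24 and 1.49 for Srf (-1.72), 0.81 and -1.02 for Mef2a (1.83), -0.52 and 0.08 for Mef2c (-0.60), and -0.74 and 0.98 for Mef2d (-1.72). In fibroblast-like against endothelial-like cells it was -2.24 and 0.11 for Mef2d (-2.35) and 1.24 and -0.12 for Gata6 (1.36). Myocd had the same sign in both pools in all 3 comparisons.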

How the results depend on the processing

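The share of genes called depended on the fit. The following shares are of the genes tested in each fit. Smooth muscle-like against fibroblast-like cells gave 4.73%, against 5.27% with no filter on low counts (696 genes, in place of 408), 3.06% without the replicate block, 14.4% with DESeq2 and 1.26% in 1 fit of all 3 classes. Setting smooth muscle-like against endothelial-like cells gave 5.64%, against 1.85% without the replicate block, 12.8% with DESeq2, and 4.17% and 3.07% with smooth muscle-like cluster 1 or 2 alone. The fibroblast-like against endothelial-like comparison gave 3.40%, against 5.51% at resolution 0.25 and with another seed, 5.52% with deeper cells only, 2.13% with DESeq2 size factors and 11.9% with DESeq2. The cause was not tested.

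Member fold changes kept direction and call in 88.97% of alternatives, lost the call in 12, gained it in 6 and changed sign in 12, all of small values that were not called. The last were Mrtfa against fibroblast-like cells at resolution 1.0 (0.0522) and with fibroblast-like cells of both resolutions (0.0532), Gata6 there with cluster 0 alone (0.0521), and Mef2a against endothelial-like cells without the filter (0.0921). Mef2d against endothelial-like cells changed sign at resolution 0.25 and with another seed (-0.290), with DESeq2 size factors (-0.0842), without the replicate block (-0.272), with DESeq2 (-0.0829), in 1 fit of all classes (-0.145), and with cluster 1 (-0.219) or cluster 2 (-0.150) alone. These alternatives keep both pools. With 1 pool left out, 50% of the member fold changes moved by at least 1 SE or changed sign.

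The correlations moved more, with 45.3% of values moved by more than the spread between pools. The fits of single clusters and the correlations over all cells were added after the data were seen. Myocd with Myh11 was 0.345 in pool A by Pearson correlation, 0.353 and 0.358 in all cells (pool A, pool B), -0.137 and 0.117 in clusters 1 and 2 of pool A, and -0.0338 in cluster 0 of pool B. Myocd with Acta2 was, in pool A, 0.0377 by plain Spearman, 0.309 by Pearson, 0.0725 after thinning, 0.527 in all cells and 0.190, 0.0988 and 0.280 in clusters 0, 1 and 2. In pool B it was -0.0696, -0.135, -0.0288 and 0.445 in the same order, 0.225 at resolution 0.25, and 0.0760 and 0.0528 in clusters 1 and 2. The median of Myocd with the contractile list was, in pool A, 0.0389, 0.272, 0.0379 and 0.322 in the same order, 0.0391 in deeper cells, 0.0714 and 0.0648 at resolutions 0.25 and 1.0, and 0.0733, -0.0139 and 0.0746 in clusters 0, 1 and 2. In pool B it was 0.0234, 0.0799, 0.0313 and 0.231, then 0.0533, 0.0797 and 0.0574, and -0.0366 and 0.0247 in clusters 0 and 2. The median of Myocd with all genes was 0.0665 and 0.0590 by Pearson and 0.0438 and 0.0295 in all cells (pool A, pool B). The 26 endothelial-like cells and 2 pools limit all comparisons.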
